A study of Mus musculus with 6 samples.

Results

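The genes described here encode proteins that carry a cell through mitosis: cyclins and kinases of mitotic entry, the spindle checkpoint, the chromosomal passenger complex, centromere and kinetochore proteins, mitotic kinesins, spindle microtubule proteins and the cytokinesis machinery. They were chosen by gene symbol, 40 genes of the 31529 in the deposited table, and each symbol was found there once. All 40 passed the filter on low counts, and the lowest estimated count of any of them in any library was 288. RNA came from heart tissue of wild-type (WT) mice of the outbred ICR stock. One group was taken at embryonic day 16.5 (E16.5) and the other at E18.5, each with 3 biological replicate libraries. No treatment or engineered allele is given for either group, and whether a library came from a single heart or from a pool is not stated in the labels.

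In the fetal mouse heart, cardiomyocytes, endothelial cells, fibroblasts and circulating blood cells all divide, and cardiomyocyte division declines around birth. Most mitotic genes are transcribed late in the cell cycle. The DREAM complex represses them in resting cells, and B-MYB (Mybl2), MuvB and FOXM1 activate them in dividing cells, through a promoter element called the cell cycle genes homology region (CHR), often together with CCAAT boxes bound by NF-Y. At mitosis, cyclin B with CDK1 drives entry, kinetochores join chromosomes to spindle microtubules, the checkpoint holds the anaphase-promoting complex until every chromosome is attached, and a contractile ring then divides the cell.

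Estimated counts summed to between 61443414 and 77237333 per library, and genes of the mitochondrial chromosome took 19.9% to 41.4% of them. E16.5 replicate 2 had the lowest mitochondrial share of the 6 libraries and E16.5 replicate 1 the highest. The 10 cardiomyocyte markers summed to 34818 to 42689 CPM (counts scaled to library size with TMM) at E16.5 and 39229 to 47223 CPM at E18.5, with none at 0 in any library. CPM values below are on this TMM scale, with the standard deviation (SD) over 3 libraries. Stages are called separate or overlapping, and libraries above or below one another, on this scale unless FPKM is named. Because CPM is not divided by transcript length, levels are compared between genes only as FPKM.

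At E18.5 the mitotic genes were on balance slightly lower than at E16.5, but no single gene passed the test across all genes. Of the 10 roles, the 5 centromere and kinetochore genes of the list had the lowest median log2 change, -0.46, and the group itself was not tested. On the TMM scale, all 3 E18.5 libraries lay below all 3 E16.5 libraries in each of Cenpa, Cenpe, Cenpf, Ndc80 and Nuf2. That arrangement occurred in 8.02% of all tested genes. As FPKM, the stages of Cenpa, Cenpf and Nuf2 overlapped, while those of Cenpe and Ndc80 were still separate. Mean levels of Ki-67 (Mki67), Cks2 and Cdca3 were 1.46-fold, 1.51-fold and 1.595-fold higher at E16.5, while the cytokinesis genes Anln and Ect2 and the cyclin gene Ccnb1 were close to or above their E16.5 level. Of the 40 genes, 0 had an adjusted p under 0.05 in edgeR's quasi-likelihood test with Benjamini-Hochberg adjustment over 19959 genes, against 0.15% of all genes called in either direction and 0.0551% called lower, and 0 did so in DESeq2. At an unadjusted p under 0.05, 10 were lower and 0 higher at E18.5, where 4.7% of all tested genes were lower and 4.83% higher. In bulk heart tissue, fewer dividing cells and less of this RNA per cell cannot be told apart.

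The log2 change was below 0 in 35 of the 40 genes, against 50.2% of all tested genes. Its median was -0.21 over the 40 and -0.0019 over all tested genes, and single genes ran from -0.67 (Cdca3) to 0.20 (Ccnb1). All 3 E18.5 libraries lay below all 3 E16.5 libraries in 13 of the 40, against 8.02% of all tested genes, and the opposite arrangement occurred in 0, against 8.45%. On the FPKM scale, which is set by all fragments including mitochondrial ones, 25 of 40 were below 0. On that scale all 3 E18.5 libraries lay below all 3 E16.5 libraries only in Cks2, Cdca3, Cenpe, Ndc80, Kif23 and Mki67. The share of all genes there was 5.44%. There the median of all genes moved to 0.12 on log2(FPKM + 0.1), and the 40 lay 0.21 below it, against 0.17 below the median of all genes on log2(FPKM + 1) and 0.21 on the TMM scale. The number lower at an unadjusted p under 0.05 was 5 without E16.5 replicate 1, where 3.37% of all genes were lower, and 3 without E18.5 replicate 2, where 2.75% were. It was 14 without E16.5 replicate 2, where 10.3% of all genes were lower. In that last fit Ndc80, Cenpe and Mki67 passed with adjusted p of 0.0295, 0.0416 and 0.0462 in the same edgeR test, and 371 genes were called in all.

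**Figure D1:**
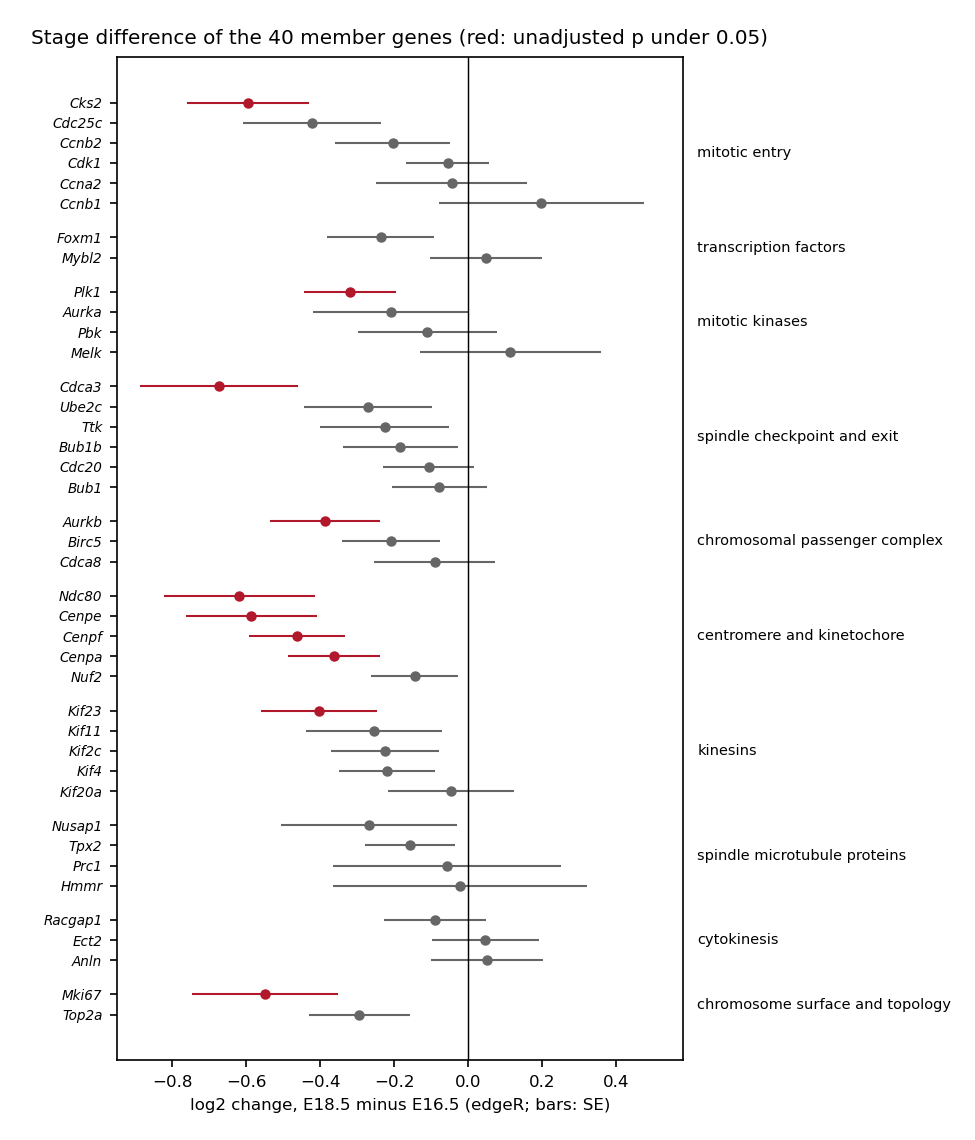
Log2 change from E16.5 to E18.5 (horizontal axis, edgeR estimate with SE, 3 libraries per stage) for each of the 40 genes, grouped by role, with red for an unadjusted p under 0.05. The 10 red genes all lie left of 0, and 4 of them are centromere and kinetochore genes.

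The promoters of these genes are shown because members of the list share elements that the choice of symbols did not use. Windows of 300 bases, from 250 before to 50 after the transcript start, are given for the 6 genes with the smallest unadjusted p, 5′ to 3′ in the direction of the gene, from RefSeq on GRCm38.p6. They lie at Cks2 chr13:51644982-51645281 (plus strand), Cenpf chr1:189688037-189688336 (minus strand), Cenpe chr3:135212313-135212612 (plus strand), Cdca3 chr6:124829926-124830225 (plus strand), Ndc80 chr17:71526808-71527107 (minus strand) and Cenpa chr5:30666636-30666935 (plus strand). Capitals mark CCAAT or its reverse complement ATTGG, and the CHR forms TTTGAA (reverse complement TTCAAA) and TTTAAA, searched on both strands. The printed matches do not overlap one another.
Cks2: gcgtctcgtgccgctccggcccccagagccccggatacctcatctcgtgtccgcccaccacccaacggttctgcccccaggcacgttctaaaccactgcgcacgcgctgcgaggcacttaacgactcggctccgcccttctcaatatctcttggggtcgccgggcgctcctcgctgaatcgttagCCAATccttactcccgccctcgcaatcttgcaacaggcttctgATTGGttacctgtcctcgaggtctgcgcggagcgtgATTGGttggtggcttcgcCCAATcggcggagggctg
Cenpf: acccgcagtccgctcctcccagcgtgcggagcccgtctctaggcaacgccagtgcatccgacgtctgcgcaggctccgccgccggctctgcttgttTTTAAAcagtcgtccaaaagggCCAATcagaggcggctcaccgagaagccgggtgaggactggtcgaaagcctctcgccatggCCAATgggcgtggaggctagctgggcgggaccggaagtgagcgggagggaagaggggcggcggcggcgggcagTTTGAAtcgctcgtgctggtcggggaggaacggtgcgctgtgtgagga
Cenpe: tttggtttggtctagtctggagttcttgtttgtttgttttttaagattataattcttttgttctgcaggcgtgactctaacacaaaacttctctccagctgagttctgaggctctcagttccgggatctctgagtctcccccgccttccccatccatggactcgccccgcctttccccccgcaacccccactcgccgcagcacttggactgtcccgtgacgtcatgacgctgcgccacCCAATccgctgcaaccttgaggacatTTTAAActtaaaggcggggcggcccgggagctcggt
Cdca3: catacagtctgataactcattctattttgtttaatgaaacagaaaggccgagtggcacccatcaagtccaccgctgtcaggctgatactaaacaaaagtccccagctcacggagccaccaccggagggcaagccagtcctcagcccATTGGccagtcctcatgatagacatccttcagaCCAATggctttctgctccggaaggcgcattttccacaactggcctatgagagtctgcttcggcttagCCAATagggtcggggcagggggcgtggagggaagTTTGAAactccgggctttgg
Ndc80: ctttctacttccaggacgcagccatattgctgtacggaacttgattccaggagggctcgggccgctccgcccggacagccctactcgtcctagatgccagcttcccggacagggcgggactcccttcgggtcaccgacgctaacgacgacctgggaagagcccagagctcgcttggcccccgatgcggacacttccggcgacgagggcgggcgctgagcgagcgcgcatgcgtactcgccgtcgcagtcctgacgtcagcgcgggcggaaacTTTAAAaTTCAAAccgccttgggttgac
Cenpa: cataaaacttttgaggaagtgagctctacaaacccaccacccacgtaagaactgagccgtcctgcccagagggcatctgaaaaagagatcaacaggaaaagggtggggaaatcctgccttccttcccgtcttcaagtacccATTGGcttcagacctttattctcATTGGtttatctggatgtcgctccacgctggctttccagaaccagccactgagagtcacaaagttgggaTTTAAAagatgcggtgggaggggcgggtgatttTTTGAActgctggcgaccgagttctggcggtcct

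The Cks2 window held 4 CCAAT boxes and neither CHR form. Cenpf had TTTAAA at position -154, CCAAT at -132 and -71 and TTTGAA at 3, counted from the transcript start as 1. In Cenpe, CCAAT lay at -12 and TTTAAA at 15. Cdca3 had 3 CCAAT boxes and TTTGAA at 31, and Cenpa had 2 CCAAT boxes with TTTAAA at -17 and TTTGAA at 17. The Ndc80 window held no CCAAT box, with TTTAAA at 23 and the reverse form of TTTGAA at 30.

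Of the 40 genes, 33 had a promoter in the table. A CCAAT box stood in 25 of these 33 (75.8%), against 37.9% of all 27025 gene promoters of that length. At least 2 CCAAT boxes stood in 18 of 33, against 12.2% of all promoters. TTTGAA stood in 24 of 33 (72.7%), against 18.1% of all, and TTTAAA in 9 (27.3%), against 13.2%. A CCAAT box together with either CHR form was found in 23 of 33 (69.7%), against 10.9% of all promoters. The same pair was present in 34 of 96 promoters (35.4%) of other mitotic genes and in 5 of 31 (16.1%) of DNA replication genes. These are letter matches given without a test, and base composition was not matched between the groups.

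Levels per length spanned a wide range within the list. Averaged over the 6 libraries, 12 genes were at or above 10 FPKM and 28 lay between 1 and 10 FPKM. Mki67 was the highest, at 68.6 ± 2.02 FPKM at E16.5 and 51.4 ± 2.31 FPKM at E18.5 (SD, n = 3 each). Cks2 followed at 48.1 ± 7.48 and 33.8 ± 3.31 FPKM, and Ube2c at 42.0 ± 4.98 and 37.7 ± 5.58 FPKM. Mki67 lay above both beyond their spread, and Cks2 and Ube2c did not differ beyond theirs. Cdc20 and Ccnb2, both averaging 21.1 FPKM, did not differ beyond their spread either. At the low end were Hmmr (2.55 FPKM over all libraries), Mybl2 (2.05 FPKM) and the kinase gene Melk (1.84 FPKM).

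Mki67 encodes Ki-67, a protein that coats mitotic chromosomes and is used as a marker of cycling cells. It was at 964, 597 and 824 CPM at E16.5 (replicates 1, 2 and 3 in order, here and below) and 598, 498 and 534 CPM at E18.5. The stages just met, since E16.5 replicate 2 and E18.5 replicate 1 were level. The log2 change was -0.55 ± 0.20 (SE), with an unadjusted p of 0.023 and an adjusted p of 0.432 in edgeR. Top2a, the DNA topoisomerase that untangles sister chromatids, was at 124, 98.5 and 107 CPM at E16.5 and 95.0, 84.7 and 88.5 CPM at E18.5. The stages did not overlap on the TMM scale but did as FPKM. The log2 change was -0.29 ± 0.14, with an unadjusted p of 0.061 in edgeR.

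Among genes of mitotic entry, Cks2, a small CDK-binding subunit, had the smallest p of the 40. Its level was 37.7, 33.9 and 40.5 CPM at E16.5 and 30.2, 21.3 and 22.7 CPM at E18.5. The E18.5 libraries were all lower, and the log2 change was -0.60 ± 0.17, with an unadjusted p of 0.00631 and an adjusted p of 0.303 in edgeR. Cdc25c, the phosphatase that activates CDK1, was at 22.5, 15.5 and 23.2 CPM at E16.5 and 14.1, 14.8 and 16.8 CPM at E18.5. Its stages overlapped through E16.5 replicate 2, with a log2 change of -0.42 ± 0.19. Cdk1 itself, the mitotic kinase, was nearly level across libraries, at 70.1, 66.7 and 69.5 CPM at E16.5 and 65.8, 65.7 and 67.0 CPM at E18.5. Its log2 change was -0.055 ± 0.11 and changed sign on the FPKM scale. Ccnb1, cyclin B1, was at 22.4, 39.1 and 18.5 CPM at E16.5 and 24.6, 35.3 and 32.0 CPM at E18.5. E16.5 held both its highest and its lowest library, and the log2 change of 0.20 ± 0.28 reversed without E16.5 replicate 3. Ccnb2 (cyclin B2) and Ccna2 (cyclin A2) had log2 changes of -0.20 and -0.045.

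The transcription factor Foxm1 was at 78.0, 61.4 and 83.1 CPM at E16.5 and 64.5, 61.8 and 62.6 CPM at E18.5. E16.5 replicate 2 was the lowest of the 6, and the log2 change was -0.24 ± 0.14. Mybl2 stayed within a narrow band, at 10.6, 9.66 and 10.1 CPM at E16.5 and 11.1, 9.69 and 10.6 CPM at E18.5, with overlapping stages and a log2 change of 0.05 ± 0.15 that reversed without E18.5 replicate 1.

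Of the mitotic kinases, Plk1, which acts at centrosomes and kinetochores, was at 44.36, 40.02 and 46.56 CPM at E16.5 and 34.05, 33.21 and 37.67 CPM at E18.5. The stages were separate on the TMM scale but overlapped as FPKM. The log2 change was -0.32 ± 0.12, with an unadjusted p of 0.0313 and an adjusted p of 0.464 in edgeR. Aurka, the spindle pole kinase, was at 17.4, 16.1 and 12.1 CPM at E16.5 and 10.5, 12.9 and 16.01 CPM at E18.5, so the stages overlapped (log2 change -0.21 ± 0.21). Pbk and Melk, kinases expressed in dividing cells, had log2 changes of -0.11 and 0.11, and both changed sign under some alternatives.

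The 6 genes of the spindle checkpoint and mitotic exit were all below 0, with a median log2 change of -0.20, and 1 of them had an unadjusted p under 0.05. That gene was Cdca3, which promotes destruction of the CDK1 inhibitor kinase WEE1. Cdca3 was at 91.6, 54.9 and 70.3 CPM at E16.5 and 53.6, 37.0 and 45.3 CPM at E18.5. The stages were separate by a small margin, with a log2 change of -0.67 ± 0.21 (edgeR adjusted p of 0.366). Ube2c, the ubiquitin-conjugating enzyme of the anaphase-promoting complex, was at 149, 109 and 114 CPM at E16.5 and 109.7, 86.4 and 112.4 CPM at E18.5, with overlap between stages (log2 change -0.27 ± 0.17). Its activator Cdc20 and the checkpoint genes Bub1, Bub1b and Ttk had log2 changes between -0.23 and -0.08 with overlapping stages.

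In the chromosomal passenger complex, which corrects faulty attachments and later acts in cytokinesis, 3 of 3 genes were below 0. Aurkb, its kinase, was at 30.9, 29.4 and 31.7 CPM at E16.5 and 20.2, 22.6 and 27.5 CPM at E18.5. The stages were separate on the TMM scale but overlapped as FPKM, with a log2 change of -0.39 ± 0.15 (edgeR adjusted p of 0.46). Birc5 (survivin) was at 34.3, 40.7 and 33.0 CPM at E16.5 and 32.8, 31.3 and 29.2 CPM at E18.5, separate by less than 1 CPM (log2 change -0.21 ± 0.13). Cdca8 (borealin) overlapped, with a log2 change of -0.09. Incenp, the scaffold of the complex, which is not among the 40, was at 68.0 ± 8.20 CPM and 56.2 ± 2.31 CPM (log2 change -0.27 ± 0.13). Its stages were also separate by less than 1 CPM, and overlapped as FPKM.

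Cenpf, a large kinetochore protein, was at 80.7, 78.7 and 81.7 CPM at E16.5 and 50.9, 62.6 and 61.4 CPM at E18.5. Its E16.5 libraries lay within about 3 CPM of each other and above each E18.5 library, but the stages overlapped as FPKM. The log2 change was -0.46 ± 0.13, with an unadjusted p of 0.00679 and an adjusted p of 0.312 in edgeR. Cenpe, the kinesin motor of the kinetochore, was at 120.2, 75.6 and 99.9 CPM at E16.5 and 69.7, 62.7 and 64.5 CPM at E18.5. The log2 change was -0.59 ± 0.18, with an adjusted p of 0.353 in edgeR. Ndc80, which binds microtubules at the kinetochore together with Nuf2, was at 49.5, 28.7 and 46.9 CPM at E16.5 and 28.5, 25.4 and 27.6 CPM at E18.5. E16.5 replicate 2 stood at the E18.5 level, so the separation was under 1 CPM, and the log2 change was -0.62 ± 0.20 with an adjusted p of 0.385. Nuf2 was at 30.0 ± 1.16 and 27.1 ± 0.799 CPM (log2 change -0.14 ± 0.12). Cenpa, the histone H3 variant that marks centromeres, was at 84.0 ± 3.06 and 65.3 ± 6.07 CPM (log2 change -0.36 ± 0.13, adjusted p of 0.415). The remaining NDC80 complex subunits, outside the 40, had log2 changes of -0.25 (Spc24) and 0.21 (Spc25) with overlapping stages. Some other kinetochore and centromere genes lay above 0. Zw10, a subunit of the complex that recruits dynein to kinetochores, had a log2 change of 0.36 ± 0.15 (unadjusted p of 0.0426 in edgeR). Zwint had one of 0.21 ± 0.12. Both had all E18.5 libraries above all E16.5 libraries, as did 8.45% of all tested genes, but their stages overlapped as FPKM. The other subunits of the Zw10 complex, Zwilch (-0.37 ± 0.16) and Kntc1 (0.04 ± 0.15), had overlapping stages. So did the checkpoint gene Mad1l1, with -0.45 ± 0.20 (unadjusted p of 0.0489 in edgeR). Of 13 other genes with a Cenp symbol, 9 were below 0 and 4 above, among them Cenpl (0.20) and Cenpc1 (0.11), with a median of -0.09. Ndc80, Nuf2, Cenpa, Zw10, Zwint, Zwilch, Kntc1, Mad1l1, Cenpl and Cenpc1 were named after their values were seen.

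**Figure D2:**
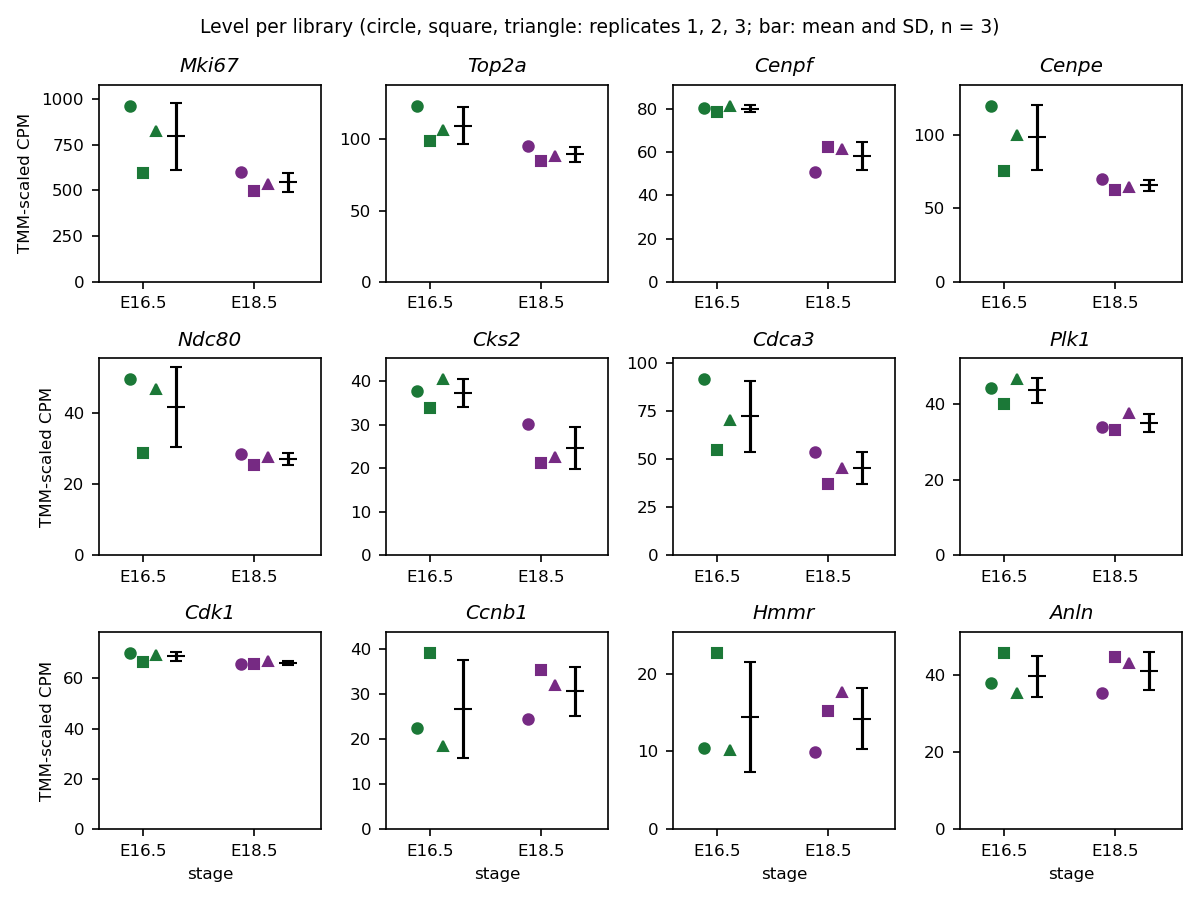
TMM-scaled CPM (vertical axes, from 0) in each library at E16.5 (green) and E18.5 (purple) for 12 of the genes, with circles, squares and triangles for replicates 1, 2 and 3 and black bars for the mean and SD (n = 3). On this scale Cenpf, Plk1 and Cks2 separate the stages, though Cenpf and Plk1 overlap as FPKM. Cdk1 is nearly level, and in Ccnb1 and Hmmr E16.5 replicate 2 is the highest library.

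All 5 kinesins were below 0, with a median of -0.22. Kif23, the motor of the central spindle, was at 57.6, 42.0 and 42.6 CPM at E16.5 and 38.8, 34.9 and 33.8 CPM at E18.5. The stages were separate, with a log2 change of -0.40 ± 0.16 (edgeR adjusted p of 0.462). Kif4, a chromosome-bound kinesin on the X chromosome, was at 36.7, 29.7 and 33.9 CPM at E16.5 and 27.5, 28.6 and 30.0 CPM at E18.5, overlapping by less than 1 CPM (log2 change -0.22 ± 0.13). Kif11, Kif2c and Kif20a had log2 changes of -0.25, -0.22 and -0.05. Kif20a shares 1271 exon bases with Cdc23 on the other strand, which held 232% of its counts, and whether counting used strand is not stated, so the Kif20a value is uncertain. The same doubt holds, to a smaller share of counts, for Kif4, which shares exon bases with Pdzd11 (81.9% of its counts), Cdc20 with Elovl1 (63.8%), Prc1 with Rccd1 (53.9%), Cdca8 with 9930104L06Rik (30.8%) and Ccna2 with Exosc9 (13.3%), all on the other strand.

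Among spindle microtubule proteins, Tpx2, which activates Aurora A, was at 48.7, 51.3 and 49.8 CPM at E16.5 and 39.98, 46.33 and 48.11 CPM at E18.5. The stages were separate by less than 1 CPM, with a log2 change of -0.16 ± 0.12. Nusap1, a microtubule-bundling protein, was at 20.1, 36.9 and 25.8 CPM at E16.5 and 18.7, 22.8 and 27.3 CPM at E18.5, with wide overlap (log2 change -0.27 ± 0.24). Prc1, which bundles microtubules of the central spindle, and Hmmr, a spindle-associated hyaluronan receptor, had the largest SE of the 40, with log2 changes of -0.06 ± 0.31 and -0.02 ± 0.34, both of which changed sign under several alternatives.

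The 3 cytokinesis genes had a median log2 change of 0.05, with 1 of 3 below 0. Racgap1, the partner of Kif23 in centralspindlin, was at 41.6, 54.1 and 51.8 CPM at E16.5 and 43.6, 46.8 and 48.3 CPM at E18.5 (log2 change -0.09 ± 0.14). Anln, the anillin scaffold of the contractile ring, was at 37.9, 45.6 and 35.3 CPM at E16.5 and 35.3, 44.6 and 43.1 CPM at E18.5 (log2 change 0.05 ± 0.15). Ect2, the exchange factor for RhoA, had a log2 change of 0.05 ± 0.14. All 3 overlapped between stages, and the signs of all 3 changed under at least 1 alternative.

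**Figure D3:**
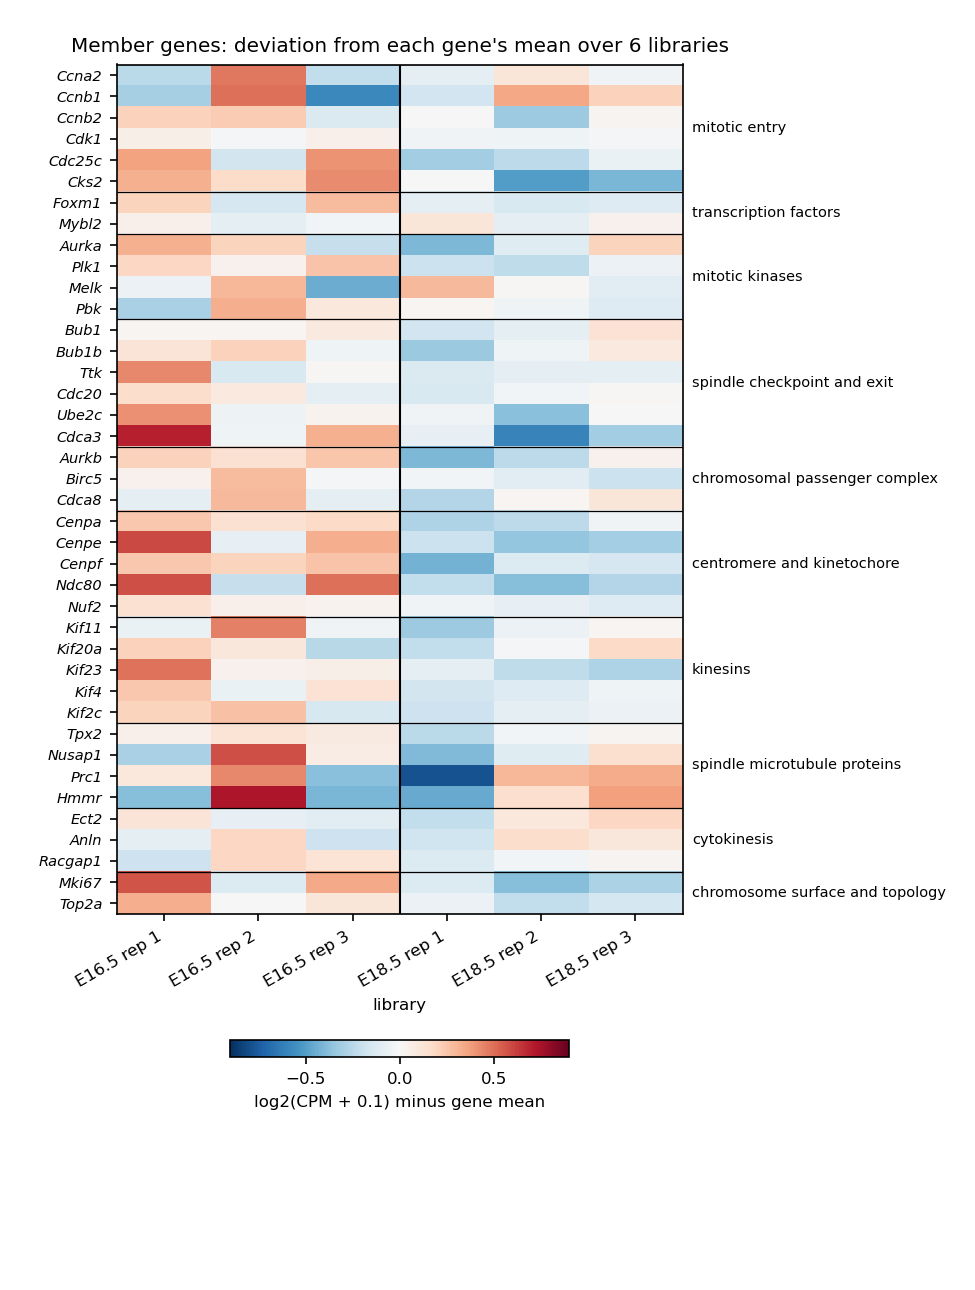
Deviation of each gene from its own mean over the 6 libraries (colour, log2(CPM + 0.1)), with genes in rows by role and libraries in columns. Centromere and kinetochore genes are blue or near white in each E18.5 library, while Hmmr, Nusap1, Ccna2 and Ccnb1 are reddest in E16.5 replicate 2.

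Across libraries, the median deviation of the 40 genes from their means on the log2 scale was 0.17, 0.13 and 0.038 in the earlier libraries and -0.17, -0.084 and -0.019 in the later ones, by replicate number. The same medians over all tested genes lay between 0.0059 and 0.022. Of the 40, 37 were highest in an E16.5 library, with 15 in replicate 1, 16 in replicate 2 and 6 in replicate 3. Of the 40, 30 were lowest in an E18.5 library, of which 17 were lowest in replicate 1. These tallies were not made over all tested genes. Below their own mean in E18.5 replicates 1, 2 and 3 were 36, 32 and 21 of the 40, against 9516, 9586 and 9357 of 19959 tested genes. In the E16.5 replicates these counts were 10, 13 and 17, against 9775, 9727 and 9832. The closest pair of libraries across stages was E16.5 replicate 3 and E18.5 replicate 3, between which 22 of 40 were lower at E18.5. The median difference there was -0.052 for the 40 and 0.020 for all tested genes. The widest contrast in number was between E16.5 replicate 2 and E18.5 replicate 2, with 36 of 40 lower. The median difference there was -0.26 for the 40 and -0.0032 for all tested genes. The number lower in a pair was not counted over all tested genes.

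Beyond the 40, 112 other mitotic genes were all tested. Of these, 75 had a log2 change below 0, with a median of -0.11. At an unadjusted p under 0.05 there were 5 lower and 2 higher, which is 4.46% lower against 4.7% of all tested genes, and 0 passed with adjustment. The number lower was 26 (23.2%) without E16.5 replicate 2, where 10.3% of all genes were lower, and 1 without E18.5 replicate 2, where 2.75% were. It was 2 without E16.5 replicate 3 (2.9% of all genes) and 3 without E18.5 replicate 3 (3.06%). With the mitochondrial share as a term it was 9 (6.26% of all genes), and with the erythroid level 10 (7.51%). The smallest p belonged to the spindle pole gene Aspm (log2 change -0.50), the centromere gene Cenpm (-0.55), Bora, the cofactor of Aurora A (-0.59), and the phosphatase gene Cdc25a (0.36). Adjusted p for these 4 ran from 0.328 to 0.45 in edgeR. The checkpoint genes Mad2l1 (-0.06) and Bub3 (0.05) and the second CDK-binding subunit Cks1b (0.01) had overlapping stages. DNA replication genes had a median of 0.02, with 18 of 40 below 0. At an unadjusted p under 0.05 there were 4 lower (10%) and 0 higher, against 4.7% and 4.83% of all tested genes. Those 4 were Gins2 (-0.76), Mcm7 (-0.39), Gins1 (-0.48) and Gins4 (-0.37), with adjusted p from 0.185 to 0.479 in edgeR. They encode helicase components, but the helicase genes Mcm2 to Mcm6, Cdc45 and Gins3 had log2 changes from 0.036 to 0.18. All E18.5 libraries lay below all E16.5 libraries in 5 of the 40 replication genes and above in 1. The shares of all tested genes were 8.02% and 8.45%.

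**Figure D4:**
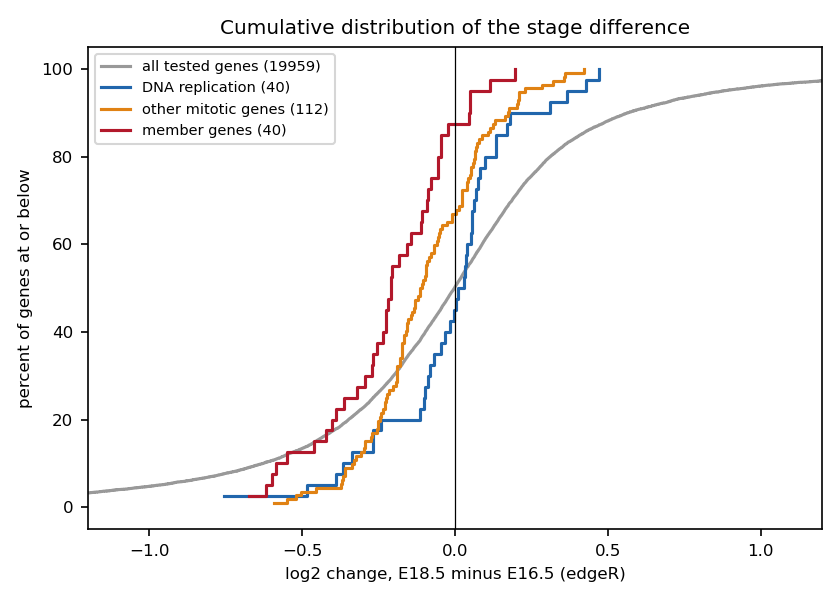
Percent of genes (vertical axis) at or below each log2 change from E16.5 to E18.5 (horizontal axis) for the 40 genes, 112 other mitotic genes, 40 DNA replication genes and all 19959 tested genes. The red curve of the 40 genes has its median at -0.21, the orange curve of other mitotic genes at -0.11, and the blue curve of replication genes at 0.02.

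Marker lists of heart cells also moved with stage in these libraries. Cardiomyocyte markers were above 0 in 8 of 10, with a median log2 change of 0.22, though their sums, given above, overlapped. At an unadjusted p under 0.05 in edgeR, Ryr2 of that list was higher and Nkx2-5 lower. The shares of all tested genes were 4.83% higher and 4.7% lower. Fibroblast markers were above 0 in 9 of 9, summing to 2290.0 to 3617 CPM at E16.5 and 3856 to 5059 CPM at E18.5. Epicardial markers were above 0 in 8 of 9, with sums of 158 to 166 CPM against 206 to 265 CPM. Krt19 was the 1 epicardial marker that rose past the threshold. Smooth muscle and pericyte markers were above 0 in 6 of 8 (sums of 709.6 to 721 CPM against 903 to 985 CPM). Endothelial markers were above 0 in 7 of 10 (sums of 750.1 to 1008 CPM against 1054 to 1189 CPM). Fabp4 had the largest change of the endothelial list, from 138, 263 and 187 CPM to 401, 409 and 344 CPM. Tek, Tie1 and Cldn5 of that list were below 0, so its sums do not describe every gene in it. No fibroblast, epicardial, smooth muscle and pericyte or endothelial marker was at 0 in any library. Erythroid markers, of cells that divide as precursors, were below 0 in 15 of 19 tested, 1 of which (Hbb-y) fell past the threshold. The 4 above 0 were Hbb-bs (0.89), Hbb-bt (0.57), Hemgn (0.53) and Alas2 (0.45), and none of these passed. The erythroid sums overlapped, at 9487 to 23839 CPM and 9007 to 21127 CPM. Hbb-bh1, Hemgn, Gata1 and Rhag of that list were at 0 in at least 1 library. With the erythroid level as a term, 12 of the 40 genes were lower at an unadjusted p under 0.05, where 7.51% of all genes were, and their median log2 change was -0.21. Macrophage markers were above 0 in 3 of 8 (43.9 to 54.8 CPM against 53.0 to 58.3 CPM). Lymphoid and neutrophil markers summed to at most 8.09 CPM in any library, with Cd3e, Cd79a, Ms4a1 and Mpo among those at 0 in at least 1, and lung and liver markers to at most 229.7 CPM (1 of 6 above 0). The part of cardiomyocyte, fibroblast, epicardial, mural and endothelial RNA in the mitotic difference was not tested.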

How the data were processed

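Poly(A)-selected RNA was sequenced, per the labels' protocols with strand-marked cDNA and molecular identifiers, from 6 heart libraries, 3 at E16.5 and 3 at E18.5. The submitters' processing notes list HISAT2 2.0.4, StringTie 1.3.4d, cutadapt 1.9, UMI-tools and mm9, with no account of their roles. Per the file headers, the authors' table gives FPKM and a count for every gene in each library. The deposited counts are whole numbers, but 31 of 38 low FPKM values that were checked implied numbers more than 0.1 from a whole one, so they were treated as estimated counts already rounded by the authors, with no further rounding. Splitting of reads between overlapping genes or copies can therefore affect them. The deposited coordinates equal those of GENCODE M21 (GRCm38) for 1 of 40 genes and are not printed. In that annotation, 7 of the 40 have a copy with at least 90% identity over 40% of a transcript, none holding more than 1.87% of the gene's counts.

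The 2 stages were tested against each other in R 4.3.3 with edgeR 4.0.16 (filterByExpr, TMM, glmQLFit, glmQLFTest, two-sided, stage as the only term) over 19959 genes, with Benjamini-Hochberg adjustment and a threshold of 0.05. SE was taken as the size of the log2 change over the root of the F statistic. The fit was tested on simulated data. Alternatives used DESeq2 1.42.0, limma 3.58.1 on log2(FPKM + 1) and log2(FPKM + 0.1) with a mean of at least 0.5 FPKM, other scaling and filters, added terms and each library left out. Motif matches were counted in RefSeq promoters. The members and lists were chosen with earlier results of these data known. By plan, library values were given for 6 genes and for the 2 genes of each role with the smallest p. Planned names outside the 40 were the 4 with the smallest p of each list and 6 partners. Library values of Ndc80, Hmmr and Cks1b were added after they were seen. So were the names of Zw10, Zwint, Zwilch, Kntc1, Mad1l1, Cenpl and Cenpc1, of further helicase genes, and of single marker genes. A planned protein motif search was not run, and 1 marker gene is not reported here by name. P-values measure the spread between these libraries.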

Additional observations from a re-analysis of the deposited data

How the results depend on the processing

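Of the 40 genes, 25 kept the sign of their log2 change under all 15 alternatives, and 15 changed it under at least 1. With edgeR's RLE scaling, no filter on low counts, mitochondrial genes left out, or DESeq2, no sign changed and 0 of the 40 passed. Genes called over the whole table numbered 30, against 403 with DESeq2, 184 with the mitochondrial share as a term, 74 with the erythroid level as a term, and 10 and 16 with limma on log2(FPKM + 1) and log2(FPKM + 0.1). Other mitotic genes lower at an unadjusted p under 0.05 numbered 9 with the mitochondrial share, 10 with the erythroid level, and 2 in each limma fit, against 5. In each limma fit, 5 of the 40 were lower at that p (2.35% and 2.3% of all genes), and 6 had separate stages with E18.5 lower (5.44% of all genes). The median log2 change was -0.090 with log2(FPKM + 1) and -0.097 with log2(FPKM + 0.1), values that are not scaled by TMM.

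Signs changed for Anln with the mitochondrial share (-0.013), for Ccna2 (0.0019) and Hmmr (0.052) with the erythroid level, and for Hmmr with the replicate block (0.040). On log2(FPKM + 1) and log2(FPKM + 0.1) they changed for Ccna2 (0.085, 0.099), Cdk1 (0.048, 0.052), Pbk (0.0063, 0.018), Bub1 (0.021, 0.024), Cdc20 (0.0019, 0.0025), Cdca8 (0.012, 0.018), Kif20a (0.052, 0.063), Prc1 (0.011, 0.0052), Hmmr (0.076, 0.14) and Racgap1 (0.017, 0.025). The cause was not tested.

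Leaving out 1 library at a time, 0 to 3 of the 40 passed, 3 to 14 were lower at an unadjusted p under 0.05 (2.75% to 10.3% of all genes), 14 to 20 had separate stages with E18.5 lower (10.8% to 21.01% of all genes, since fewer libraries separate more easily), and the median ran from -0.27 to -0.14. Genes called over the table ran from 8 (without E16.5 replicate 3) to 371 (without E16.5 replicate 2), and other mitotic genes lower at that p from 1 to 26. Ranges that crossed 0 were -0.18 to 0.24 for Ccna2, -0.018 to 0.58 for Ccnb1, -0.0060 to 0.099 for Mybl2, -0.067 to 0.32 for Melk, -0.27 to 0.044 for Pbk, -0.17 to 0.047 for Cdca8, -0.18 to 0.041 for Kif20a, -0.25 to 0.22 for Prc1, -0.23 to 0.46 for Hmmr, -0.040 to 0.15 for Ect2 and -0.035 to 0.17 for Anln.

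The labels do not say whether same-numbered libraries of the stages share more than a number. Their deviations correlated at 0.10, 0.19 and -0.066 for replicates 1, 2 and 3. The value for replicate 2 was the highest of any pair across stages, while E16.5 replicate 3 correlated best with E18.5 replicate 1. Deviations from a mean of 3 libraries sum to 0, so these correlations cannot decide whether libraries were paired. With the replicate block, 11 of the 40 were lower at an unadjusted p under 0.05, against 10 without it, and 0 passed. The shares of all genes lower at that p were 5.87% with the block and 4.7% without it. With 3 libraries per stage, the common biological coefficient of variation over all tested genes was 34.3%, while the lowest count of any of the 40 was 288. That value was not computed for the 40 alone, whose SE of the log2 change ran from 0.11 (Cdk1) to 0.34 (Hmmr).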

Other observations

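Hmmr, a spindle-associated hyaluronan receptor, was at 10.4, 22.7 and 10.3 CPM in the E16.5 libraries, by replicate number, and at 9.92, 15.2 and 17.7 CPM in the E18.5 libraries. Cks1b, the second CDK-binding subunit, was at 13.2, 34.7 and 14.2 CPM and at 17.5, 23.8 and 21.3 CPM in the same order. Both were highest in E16.5 replicate 2. The mitochondrial share of these libraries was 41.4%, 19.9% and 35.0%, then 33.5%, 26.7% and 25.2%, in that order. For erythroid markers the sums were 9487, 23839 and 15579 CPM, then 9007, 16720.1 and 21127 CPM. The part of either in the levels of Hmmr and Cks1b was not tested. Hmmr and Cks1b were picked after their values were seen.

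The spread of Mki67 over its libraries differed between TMM-scaled CPM and the deposited FPKM. Its SD over the E16.5 libraries was 185 CPM around a mean of 795 CPM, and 2.02 FPKM around a mean of 68.6 FPKM. On the FPKM scale its stages were separate. Mki67 was not alone in this, as Cenpe was at 98.6 ± 22.3 CPM and 9.95 ± 0.285 FPKM at E16.5, and Ndc80 at 41.7 ± 11.3 CPM and 5.55 ± 0.550 FPKM. In other genes the FPKM spread was the wider relative to the mean, as in Cenpf (80.3 ± 1.55 CPM, 4.67 ± 0.955 FPKM).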
